A study of Mus musculus with 6 samples.

Results

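The Fc gamma receptor genes of the mouse are described here by the accessible chromatin around them in leukemic granulocyte-macrophage progenitors (L-GMPs). The members are the 4 receptor genes Fcgr1, Fcgr2b, Fcgr3 and Fcgr4, and Fcer1g, which encodes the signalling chain of the activating receptors. Every ATAC-seq peak that overlapped the body of 1 of these 5 genes or the 20 kb on either side was taken (mm10, GENCODE M21). This gave 242 of the 438111 peaks in the 6 peak lists. Merged over the lists by an overlap of at least 1 bp, they formed 47 of 112852 regions, and 29 of the 47 had a peak in all 6 lists. The rule used positions only and no measured value.

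Fc gamma receptors bind the constant part of IgG and let myeloid cells take up and respond to antibody-coated particles. Fcgr1 encodes the high-affinity receptor FcγRI, and Fcgr3 and Fcgr4 encode the activating receptors FcγRIII (CD16) and FcγRIV. They signal through the Fcer1g chain, whose tyrosine motif is phosphorylated by Src-family kinases and then recruits Syk. Fcgr2b encodes FcγRIIB (CD32), the inhibitory receptor, which carries a motif of its own that recruits the lipid phosphatase encoded by Inpp5d.

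The study asked how chromatin accessibility changes when guanine nucleotide synthesis is inhibited in leukemia stem cells driven by the fusion protein MLL-AF9. L-GMPs of wild-type genotype (labelled WT, and as AML LSCs from blood) were cultured with IL3 and serum, and 3 samples were labelled Control and 3 MMF. MMF is mycophenolate mofetil, an inhibitor of the guanine-synthesis enzyme IMPDH, given for 24 h according to the labels and for a shorter time according to a legend of the study. All 6 samples carry MLL-AF9, and the labels do not say whether the samples of a group were separate cultures, so the p-values cover only the spread between these samples. L-GMPs are sorted from leukemic mice as GFP+, c-kit+ cells that stain with an antibody to the low-affinity Fc gamma receptors. That antibody sees the products of Fcgr3 and Fcgr2b, so the cells put into culture were chosen for having those receptors on their surface. The cells were sorted again after treatment, by a gate not given in the sources used here, and its part in the differences between groups was not tested. A list of peaks from many cells cannot tell more cells with an open site from a more open site in each cell.

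The lists held 58496 to 63911 peaks in the control samples and 80893 to 86556 in the MMF samples. The number of reads over the highest point of each peak (the summit) was solved from the deposited fold enrichment and p-value, and its median was 14 to 19 reads per list, so single regions rest on few reads. To compare samples, summit reads were divided by the genome-wide background of the sample (0.62 to 0.909 reads), and this ratio is called the scaled summit level. Peaks stood at the promoters of Kit, Cd34, Hoxa9 and Meis1 in most or all lists, but at that of Mpo in none. None of the lists held a promoter peak at Cd3e, Cd3g, Cd79a, Fcer1a, Cpa3, Ncr1 or Prg2, markers of lymphoid cells, mast cells and eosinophils. Weak peaks did stand at the red-cell gene Epor (5 lists, level up to 22.2) and the natural killer cell gene Klrb1c (1 MMF list). The eosinophil gene Epx was listed in 1 control sample (12.35) and in all MMF samples (16.5 to 19.8). Of 3 mature myeloid markers, Itgam had a promoter level of 31.8 to 45.3 in the control and 62.3 to 71.01 in the MMF samples, and Csf1r was not listed in 1 control sample, 12.35 and 13.02 in the others, and 31.1 to 36.3 with MMF. Ly6g had weak peaks in 4 lists. Elane, a gene of granulocyte precursors, was listed in 1 control sample (21.7) and in all MMF samples (26.4 to 38.5). Hoxa9 and Meis1 were lower with MMF without overlap, as were 13.4% of the 20310 genes with a promoter peak in any list. Neither was called by limma on the log2 level (adjusted p 0.144 and 0.139) or on the rank (0.914 and 0.959). The part of mature myeloid cells in the results below was not tested.

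The 5 windows held 36, 37 and 37 peaks in the control lists and 43, 43 and 46 in the MMF lists. The groups did not overlap, and the difference of 7.33 peaks reached the smallest p that 3 against 3 samples allow (exact two-sided permutation test, p = 0.1). The MMF lists were longer throughout, and per 10000 peaks of the list the windows held 5.97 peaks in control and 5.22 in MMF samples. One of the 47 regions was gained, listed in 3 of 3 MMF samples and in none of the controls (2.13%, against 6.0% of all 112852 regions), and 0 were lost (0.182% of all). In 12 regions more MMF than control lists had a peak (25.5%, against 46.9% of all regions), and in 4 fewer (8.51%, against 10.6%). Among the 29 regions with a peak in all 6 lists, the rank of the fold enrichment rose with MMF in 1 (3.45%, against 1.44% of 41182 such regions) and fell in 0 (0.425%), by limma at an adjusted p under 0.05. Ranking by −log10 p also gave 1 higher (1.29% of all) and 0 lower (0.466% of all). At an unadjusted p under that threshold, 2 regions lay higher (12% of all shared regions did) and 6 lower (11.2%). The 6 include copies of a tandem repeat, which are not independent of each other, and the region 11848 bp upstream of Fcgr4. The 29 regions were of different kinds, and 11 of them lay over tRNA genes or in a tandem repeat, 4 at promoters of neighbouring genes and 14 elsewhere in the receptor windows, a grouping made after the values were seen.

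**Figure D1:**
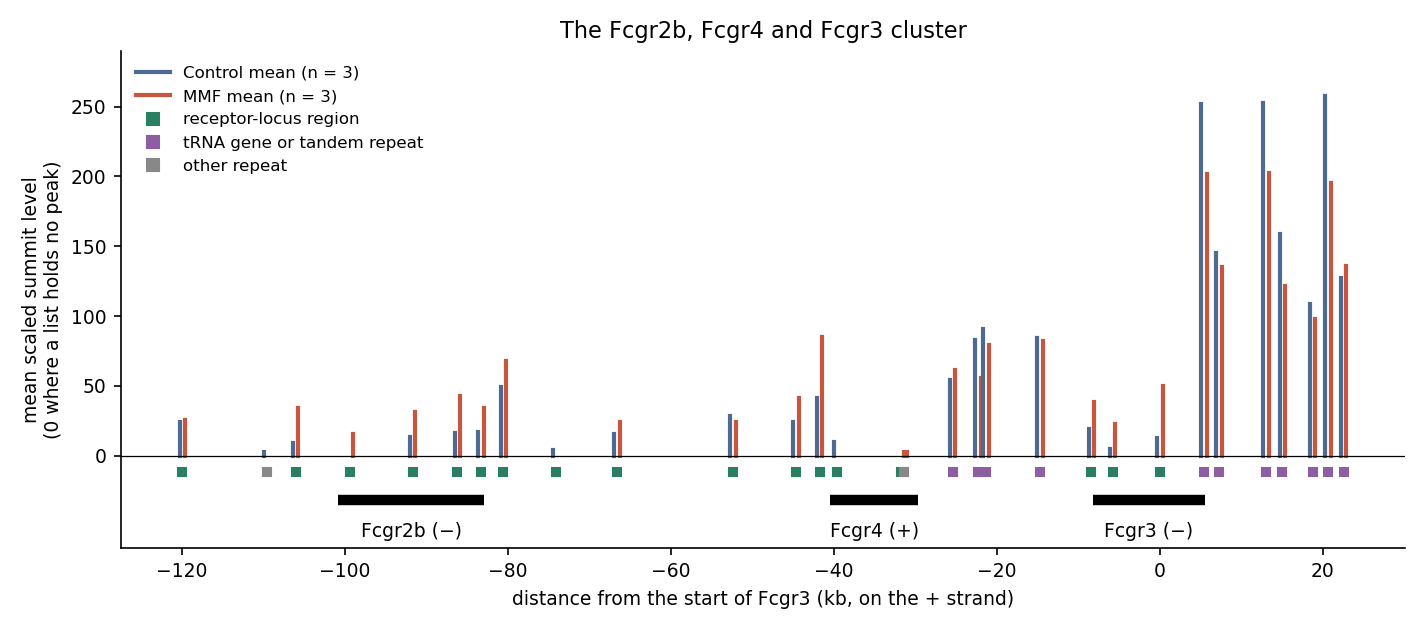
Map of the Fcgr2b, Fcgr4 and Fcgr3 cluster on chromosome 1. Bars give the mean scaled summit level (3 samples a group, a list without the peak counted as 0) of each region against its distance from the start of Fcgr3 in kb, squares give the kind of region, and black bars the gene bodies. The tallest bars lie over the tRNA genes and the tandem repeat next to Fcgr3, where MMF means are mostly below control means. The MMF bars are taller in the introns of Fcgr2b and at 1255 and 4186 bp before Fcgr4, and shorter at 11848 bp before it.

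In Fcgr2b, the gene of the inhibitory receptor (chr1:170958617-170976547, minus strand), the 2 intronic regions present in all 6 lists reached a higher scaled level with MMF. The region called by rank lay in an intron, 2898 bp downstream of the nearest start, at chr1:170973023-170973463, and also within 1 kb of the start of the gene model Gm38204. Its summit reads numbered 10, 12 and 11 in Control and 43, 30 and 26 in MMF. The highest control value lay below the lowest MMF value. Its scaled summit level was 16.3 ± 2.22 (SD, n = 3) in control and 42.7 ± 4.43 in MMF samples, a log2 difference of 1.40 ± 0.18 (SE; limma, adjusted p = 0.00157). On the rank scale it moved by 1.16 ± 0.21 score units (limma, adjusted p = 0.0412). The rank call was lost when any 1 of the 6 samples was left out (adjusted p 0.0914 to 0.126), while the call on the log2 level held without each of them (0.00419 to 0.00942).

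The second intronic region of Fcgr2b, 8407 bp downstream at chr1:170967395-170967983, had 10, 8 and 9 summit reads in control and 26, 19 and 26 in MMF samples. The groups did not overlap here either. The log2 level rose by 1.23 ± 0.19 (SE; limma, adjusted p = 0.00298) and the rank score by 1.17 ± 0.24, which missed the threshold (adjusted p = 0.0525). The 200 bases around both summits are shown because these are the regions of the 5 genes that moved furthest on the log2 level. They are from the mm10 assembly, minus strand, at chr1:170973129-170973328 for the first and chr1:170967620-170967819 for the second, and capitals mark letters of the motifs searched for below.
Fcgr2b intron, first region: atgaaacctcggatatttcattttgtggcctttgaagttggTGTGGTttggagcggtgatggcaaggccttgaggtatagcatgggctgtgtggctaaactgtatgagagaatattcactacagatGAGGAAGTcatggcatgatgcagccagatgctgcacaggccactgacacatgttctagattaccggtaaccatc
Fcgr2b intron, second region: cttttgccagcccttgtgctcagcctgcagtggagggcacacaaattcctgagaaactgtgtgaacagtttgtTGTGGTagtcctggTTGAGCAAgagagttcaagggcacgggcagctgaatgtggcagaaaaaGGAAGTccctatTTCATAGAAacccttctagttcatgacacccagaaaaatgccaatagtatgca
The first holds the PU.1 letters GAGGAAGT, and the second the C/EBP pattern TTGCNNAA on the opposite strand (as TTGAGCAA), the STAT pattern TTCNNNGAA (as TTCATAGAA) and the ETS letters GGAAGT. Both hold the RUNX letters on the opposite strand (as TGTGGT).

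The other regions of Fcgr2b had smaller differences or lacked a peak in some lists. Its promoter peak, 37 bp downstream of the start, was not listed in Control 1, had 19 and 14 reads in the other control samples, and had 35, 18 and 26 with MMF. A region 2318 bp upstream had 42, 37 and 23 reads against 75, 39 and 44, with overlapping levels (log2 difference 0.46 ± 0.22, limma, adjusted p = 0.185). A region 16251 bp upstream had 13, 10 and 9 against 19, 16 and 19 reads, and its level did not overlap between groups (0.61 ± 0.18, adjusted p = 0.0413). That call was kept when Control 1 was left out (adjusted p = 0.0454) and lost when any other sample was (0.0586 to 0.139). The region gained with MMF lay at the 3′ end of Fcgr2b, in a UTR (chr1:170959830-170960143), with 17, 10 and 9 reads in the MMF samples. Beyond the gene end, a region 22752 bp downstream of the start was listed in 2 control samples with 10 and 9 reads and in all MMF samples with 25, 23 and 29. Further off, at 36639 bp, the level overlapped (19.2 to 27.5 in control, 13.3 to 36.8 in MMF samples).

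Fcgr4, an activating receptor gene on the plus strand (chr1:171018920-171029761), had its main region 1255 bp upstream of its start, between genes at chr1:171017084-171018119. The 3 control samples had 27, 33 and 24 summit reads and the 3 MMF samples 76, 58 and 61. The scaled level was 41.2 ± 5.77 (SD, n = 3) in control and 85.3 ± 4.31 in MMF samples, with no overlap. The log2 difference was 1.06 ± 0.17 (SE; limma, adjusted p = 0.00318), and this call held without each sample. The rank of its fold enrichment moved by 0.38 ± 0.22 score units and was not called (adjusted p = 0.333). The plus-strand sequence around its summit, at chr1:171017565-171017764, is shown because this region had the highest MMF level of the regions called in the windows, with the ETS letters GGAAGT on the opposite strand (as ACTTCC) in capitals.
Fcgr4 upstream region: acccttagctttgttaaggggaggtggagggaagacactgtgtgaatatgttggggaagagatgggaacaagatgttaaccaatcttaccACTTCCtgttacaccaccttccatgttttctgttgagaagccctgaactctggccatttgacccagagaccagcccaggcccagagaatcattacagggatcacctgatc

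A second upstream region of Fcgr4, at 4186 bp, had 15, 22 and 13 reads in control and 40, 27 and 28 in MMF samples. Its log2 level rose by 0.78 ± 0.20 (SE; limma, adjusted p = 0.0236), a call kept only when Control 2 was the sample left out (adjusted p 0.00952 there, 0.0534 to 0.0792 otherwise). Its rank score moved by −0.11 ± 0.31 (adjusted p = 0.853). At 11848 bp upstream, the levels overlapped (24, 20 and 15 reads against 18, 19 and 18). The rank score there moved by −0.68 ± 0.23 (SE; limma, unadjusted p = 0.015, adjusted p = 0.131). Inside Fcgr4, 1 control list had a peak 900 bp downstream of the start (22 reads), and 2 single MMF lists had peaks of 5 and 7 reads near the small RNA gene Gm26110, the second of them in a repeat with 29 other copies in the genome.

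Fcgr3 (chr1:171051174-171064935, minus strand), the other activating receptor gene of the cluster, had a peak over its start in 1 control list and in all 3 MMF lists. Its summit lay 29 bp upstream, with 23 reads in Control 3 and 47, 36 and 32 in the MMF samples. The local background at this peak was 5.97 reads in Control 3 and 6.86 to 8.40 with MMF. A peak in an intron, 5808 bp downstream, was listed in 1 control sample (11 reads) and in 3 MMF samples (23, 16 and 13). The only region of Fcgr3 with a peak in all 6 lists outside tRNA genes and repeats lay just past the end of the gene, 8394 bp from the start (chr1:171050718-171051161). It had 15, 10 and 14 reads in control and 38, 31 and 20 in MMF samples, and its log2 level rose by 1.00 ± 0.23 (SE; limma, adjusted p = 0.0128). This call was lost without MMF 1 (adjusted p = 0.051) or MMF 2 (0.0536), and its rank score moved by 0.42 ± 0.33 (adjusted p = 0.466).

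The bases before the Fcgr3 start (chr1:171059404-171059503) and around the summit past its end (chr1:171050909-171051108) are shown on the minus strand, since they belong to the promoter peak and to the region of Fcgr3 called on the log2 level. Capitals mark the C/EBP pattern in the first, and in the second the RUNX, STAT and AP-1 letters.
Fcgr3, before its start: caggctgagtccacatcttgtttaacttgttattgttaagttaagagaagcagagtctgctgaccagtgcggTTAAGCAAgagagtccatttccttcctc
Fcgr3, past its end: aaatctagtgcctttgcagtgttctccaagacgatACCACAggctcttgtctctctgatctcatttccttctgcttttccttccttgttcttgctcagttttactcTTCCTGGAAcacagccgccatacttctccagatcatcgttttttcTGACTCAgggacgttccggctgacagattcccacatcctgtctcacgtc

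Fcgr1, the gene of the high-affinity receptor, lies apart on chromosome 3 (chr3:96282909-96293969, minus strand). Its promoter region (chr3:96293454-96294338) had 16, 12 and 19 reads in control and 24, 29 and 22 in MMF samples. The scaled levels overlapped, at 23.3 ± 6.75 (SD, n = 3) in control and 33.3 ± 7.37 in MMF samples, and the log2 difference of 0.53 ± 0.24 (SE) was not called (limma, adjusted p = 0.159). An intronic region 6477 bp downstream (13, 10 and 8 reads against 15, 12 and 12) and a region 6924 bp upstream (49, 46 and 44 against 61, 48 and 43) also overlapped in level. The latter had a log2 difference of −0.04 ± 0.15 (SE). A region past the end of the gene, 15772 bp from the start in an exon of the gene model Gm42743, had 48, 64 and 59 reads in control and 69, 51 and 44 in MMF samples, and its levels overlapped as well (−0.23 ± 0.19). A weak region 18859 bp upstream was listed in 1 control sample (5 reads) and in 3 MMF samples (10, 12 and 9). The 120 bases upstream of the annotated start (chr3:96293970-96294089, minus strand) hold the STAT pattern, as TTCCCAGAA, and the ETS letters on the opposite strand.
Fcgr1 promoter: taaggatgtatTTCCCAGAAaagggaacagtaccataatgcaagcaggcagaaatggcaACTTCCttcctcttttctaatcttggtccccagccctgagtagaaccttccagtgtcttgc

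Fcer1g, the gene of the signalling chain (chr1:171229572-171234365, minus strand), differed little between groups at its promoter. Its promoter region had 58, 48 and 45 reads in control and 64, 40 and 54 in MMF samples, and the scaled level was 73.9 ± 5.17 (SD, n = 3) against 69.0 ± 11.7. The log2 difference was −0.11 ± 0.18 (SE; limma, adjusted p = 0.718), and its sign turned when MMF 2 was left out (0.02). In an intron 2205 bp downstream, a peak was listed in Control 3 only among the control samples (12 reads) and in all MMF samples (30, 17 and 20). Of the other Fcer1g regions outside promoters, 1 was in more control lists and 3 were in more MMF lists, and none was in more than 2 lists of a group.

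**Figure D2:**
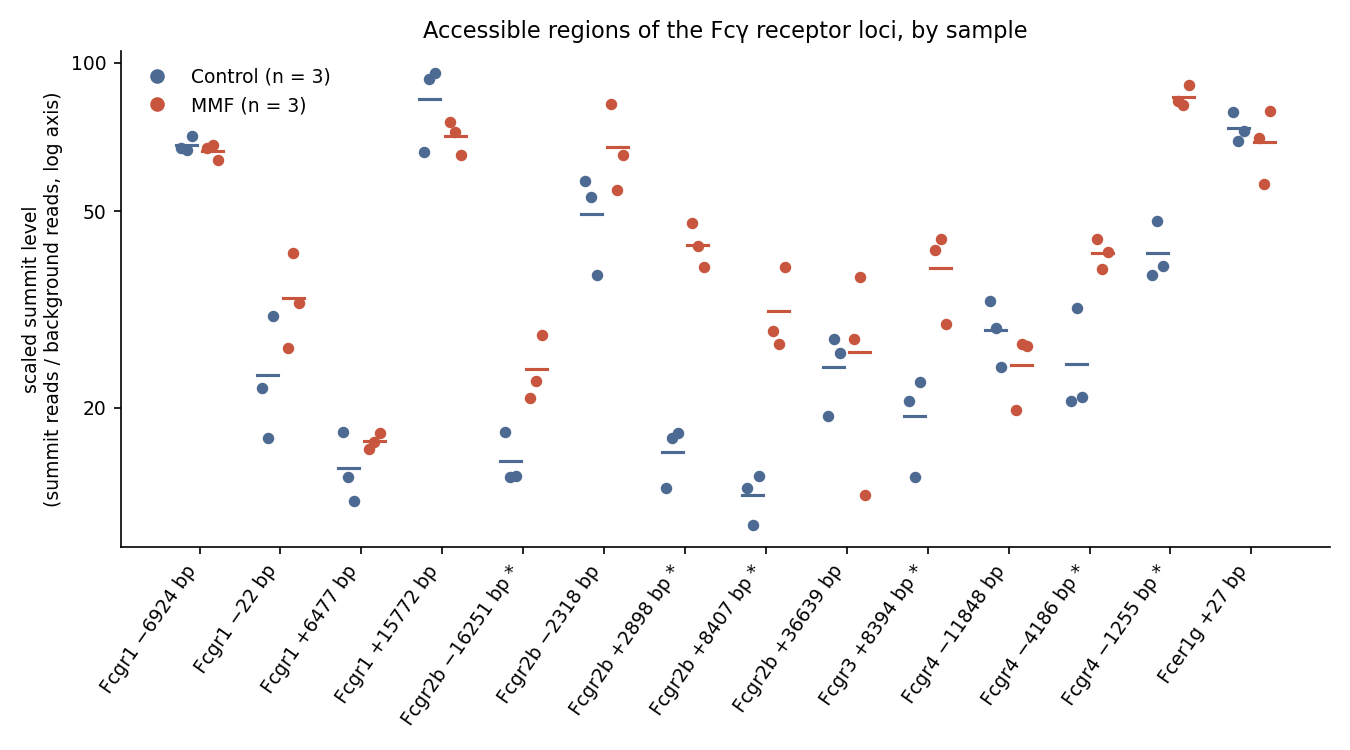
Scaled summit level (summit reads over genome-wide background reads, log axis) of the 14 regions with a peak in all 6 lists that lie outside tRNA genes, repeats and neighbouring promoters. Points are samples, short lines group means (n = 3), labels give the gene and the distance from its nearest start, and a star marks the 6 regions called on the log2 level; the 6 starred regions are those in which all MMF points lie above all control points.

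Taken gene by gene, the highest promoter peak (within 1 kb of an annotated start) did not overlap between groups in Fcgr3 and Fcgr4. Fcgr3 was not listed in 2 control samples, 37.1 in the third, and 51.7, 51.0 and 47.3 with MMF. Fcgr4 had 37.0, 47.8 and 38.7 in control and 83.6, 82.2 and 90.2 in MMF samples. Among the 20310 genes with a promoter peak in any list, 10.3% did not overlap and were higher with MMF, and 13.4% were lower. For both genes the exact two-sided permutation test gave p = 0.1, the smallest these 6 samples allow, and 0.25 after Benjamini-Hochberg adjustment over the 5 genes. Fcgr1 and Fcgr2b (both exact permutation p = 0.2, adjusted 0.25) and Fcer1g (exact permutation p = 0.7, adjusted 0.7) overlapped. In the control samples Fcer1g lay above every other gene in every sample. Fcgr1, Fcgr2b and Fcgr3 overlapped each other there and are given no order, since unlisted peaks count as 0 and Fcgr3, in the 1 control list that holds it, lay above Fcgr1 (30.6) and Fcgr2b (22.6). On the scaled level in the MMF samples, where all 5 were listed, Fcgr4 came first (85.3), then Fcer1g (69.0) and Fcgr3. These 3 did not overlap each other or the genes after them, Fcgr2b and Fcgr1, which overlapped each other. The order depended on the measure. By deposited fold enrichment, Fcgr3 came last in the MMF samples (mean 4.667), below Fcgr2b (6.293) and Fcgr1 (11.32) without overlap. Fcgr4 (11.92), Fcer1g (11.99) and Fcgr1 overlapped each other there. In Control 3, the fold enrichment of Fcgr3 (3.443) also lay below that of Fcgr2b (5.505) and Fcgr1 (10.96). The Fcgr4 peak has its summit 1255 bp upstream, and only its edge reaches within 1 kb of the start. It lies outside 500 bp of the start and gives no value there. Fcgr3 turned to a difference of −50.3 when the start of a transcript in the comprehensive annotation only was added, since that start lies in the tandem repeat.

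**Figure D3:**
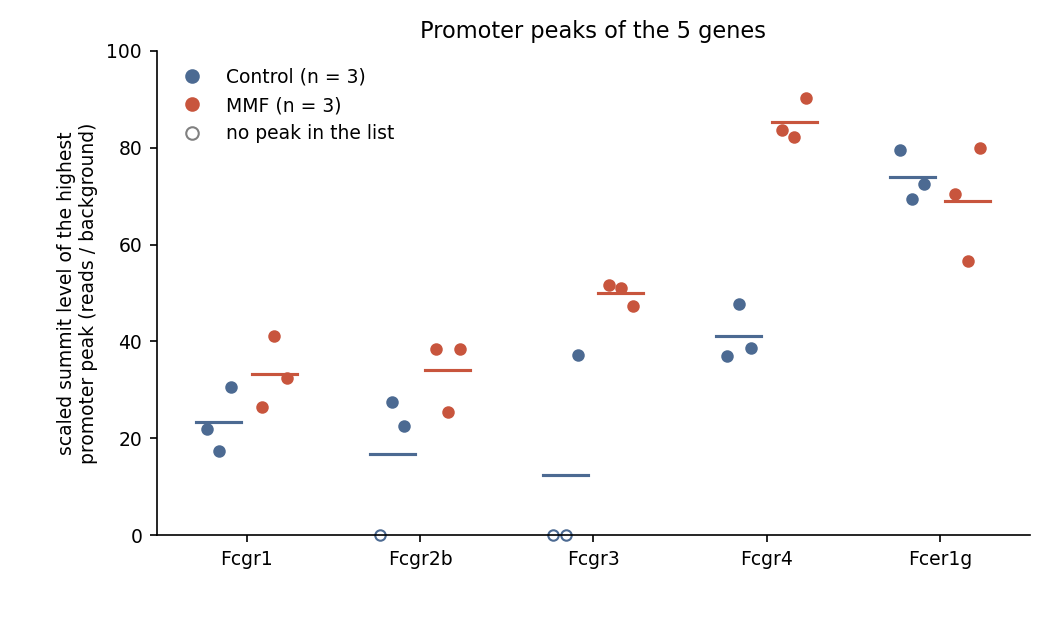
Scaled summit level of the highest promoter peak of each of the 5 genes, by sample. Filled points are samples with a listed peak, open points at 0 are samples whose list holds none, and lines are group means (n = 3, with a missing peak taken as 0); the MMF points of Fcgr3 and Fcgr4 lie above all control points, and those of the other 3 genes overlap.

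On the log2 scaled level, 6 of the 29 regions rose with MMF (20.7%, against 18.6% of all 41182 shared regions) and 0 fell (0.969% of all). At an unadjusted p under the threshold, 6 lay higher (28.9% of all shared regions did) and 3 lower (3.72%). The level did not overlap between groups in 6 regions that were higher (20.7%, against 29.1% of all) and 6 that were lower (20.7%, against 7.67% of all). The lower regions in both counts include copies of the tandem repeat, whose reads cannot be told apart. They are therefore not independent of each other. The share of window regions that rose was near that of the genome. Over all shared regions the median log2 difference was 0.165, and the sample medians differed by 0.354. With each sample centred on its own median, 3 of the 29 regions rose (6.90% of all) and 7 fell (13.9% of all). The 3 were both Fcgr2b introns (0.87 ± 0.19, adjusted p = 0.022, and 1.04 ± 0.17, adjusted p = 0.0117) and the upstream region of Fcgr4 (0.71 ± 0.17, adjusted p = 0.0258). The 7 all lay over tRNA genes or in the tandem repeat, whose copies are not independent of each other.

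The local background of some regions differed between groups too. Peak calling sets each summit against a local background, which comes from the surrounding reads where these exceed the genome-wide background. Those reads can include the ones of the peak itself and of near peaks. The local background is therefore not independent of the summit reads, and a separate change of the surroundings was not tested. At the Fcgr4 region 1255 bp upstream it was 3.52, 3.75 and 3.53 times the genome-wide background in control and 5.71, 6.12 and 6.01 times in MMF samples. At the end of Fcgr3 it was 1.56, 1.32 and 1.06 times against 2.48, 2.27 and 2.35 times. At the first Fcgr2b intron it was 1.56, 2.13 and 2.06 times against 2.95, 2.70 and 2.95 times. In none of these 3 did the groups overlap (exact permutation p = 0.1 each). The local background was higher without overlap in 7 of the 14 regions outside tRNA genes, repeats and neighbouring promoters (31.3% of all shared regions), the 6 called on the level and the Fcgr1 promoter. At the second Fcgr2b intron, 1 of the 7, the control values lay at the genome-wide background (1.00 times each). The MMF values there were 1.40, 1.02 and 1.51 times, so MMF 2 was barely above it. The local background was lower without overlap in 1 of the 14, the region 6924 bp upstream of Fcgr1 (2.51, 2.52 and 2.59 times against 2.41, 2.17 and 2.35 times). The fold enrichment divides the reads by this local background, and at the Fcgr4 region 4186 bp upstream it overlapped between groups (4.92, 6.77 and 4.56 against 6.997, 5.25 and 6.05).

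**Figure D4:**
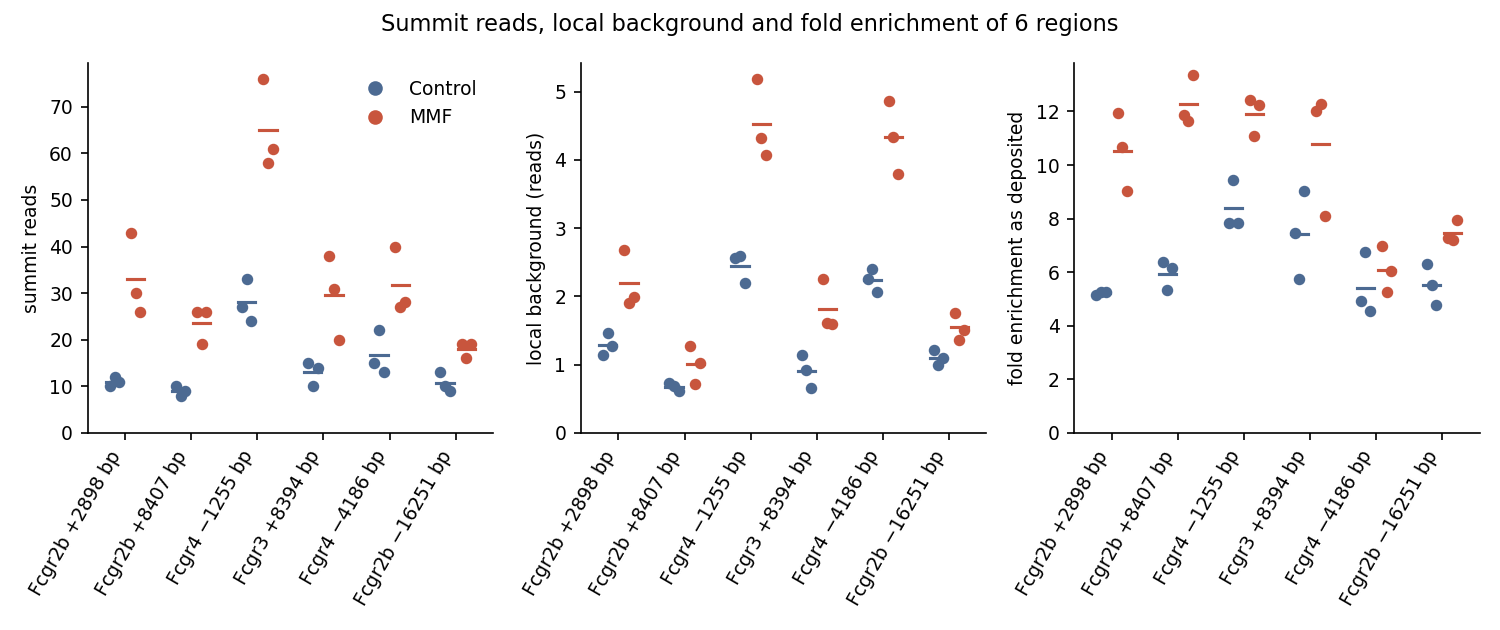
Summit reads, local background in reads and deposited fold enrichment, by sample, of the 6 regions called on the log2 scaled level. Points are samples and lines group means (n = 3), all axes start at 0; reads rose in all 6 regions, while the fold enrichment overlaps at the Fcgr4 region 4186 bp upstream and at the end of Fcgr3.

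The strongest peaks of the windows belonged to tRNA genes and to a tandem repeat beside Fcgr3, and their levels leaned the other way. RefSeq places 20 tRNA genes in the chromosome 1 windows, and 17 of them lay under a region. From the 5′ end of the longest Fcgr3 model outwards, a unit repeated at offsets of 7628 and 15242 bp lies in 3 copies with 97.7% to 98.2% identity, each with tRNA genes for Glu, Gly, Asp and Leu. The 200 bases around the main summit of each copy were identical to those of another copy, so reads there cannot be given to 1 copy. Each copy carries the same glycine tRNA gene with the anticodon TCC, and another identical gene lies between Fcgr4 and Fcgr3. It is shown because it is shared by the strongest regions, at chr1:171064699-171064770 (minus strand) in the first copy, with the anticodon in capitals.
tRNA-Gly (n-TGtcc1): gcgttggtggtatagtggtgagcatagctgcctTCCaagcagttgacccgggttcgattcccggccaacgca
The sum of scaled levels over the 3 copies was 749, 773 and 765 in control and 575, 626 and 598 in MMF samples. The groups did not overlap, and the MMF mean was 0.787 times the control mean (exact two-sided permutation p = 0.1). Summit reads overlapped (546, 534 and 474 against 523, 442 and 404), and so did the level sum over the second peak of each copy (393 against 431, exact permutation p = 0.2).

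None of the 11 tRNA or repeat regions was called on the log2 level (lowest adjusted p 0.0665, limma) or on the rank (0.105). Their log2 differences ran from −0.60 to 0.19 with a median of −0.20, and 5 of the 11 were lower without overlap (7.67% of all). The repeat copies among them are not independent of each other. The 14 other regions ran from −0.23 to 1.40 with a median of 0.50. Of these 14, 6 were higher without overlap (29.1% of all shared regions were) and 0 lower (7.67%). The local background was lower without overlap in all 11 tRNA or repeat regions and at all 4 promoters of neighbouring genes, besides the 1 region of Fcgr1 named above (12.4% of all shared regions). Regions over tRNA genes and the repeat lie close together and share surrounding reads, so their local backgrounds are not independent values. The 4 promoters of neighbouring genes had log2 differences of −0.13 to 0.06, and 0 were called. The control levels of the kinds differed as well, from 54.2 to 258 over tRNA genes and the repeat and from 13.3 to 84.5 in the 14 other regions. The part of signal strength in the differing changes was not tested.

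**Figure D5:**
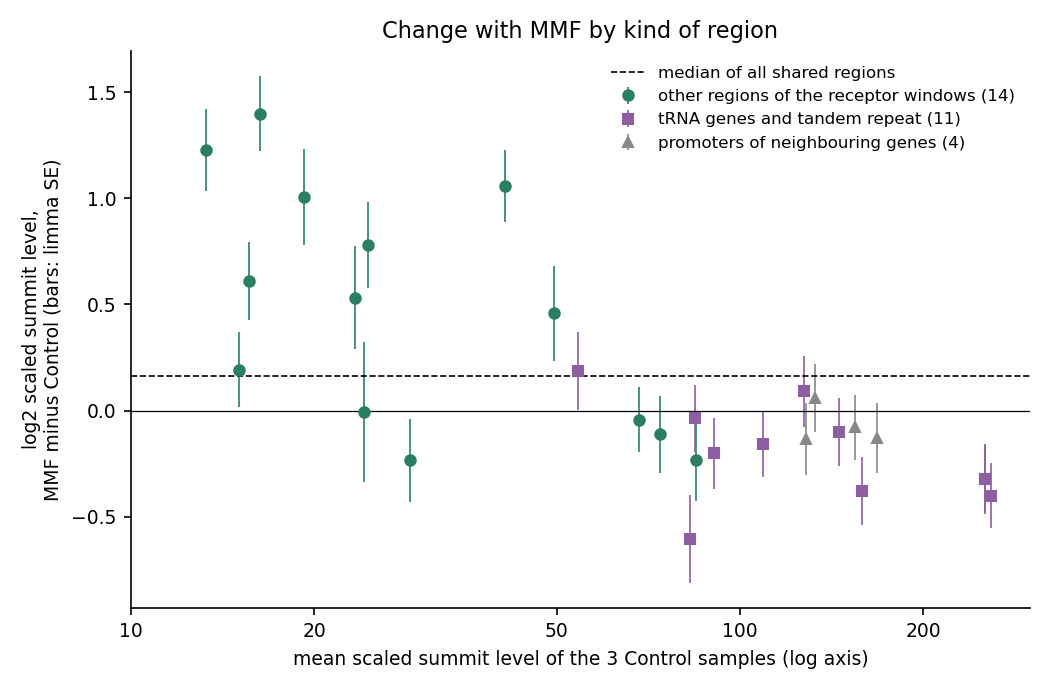
Log2 difference in scaled summit level (MMF minus control, with limma SE bars) against the mean control level (log axis) for the 29 regions with a peak in all lists. Shapes give the kind of region and the dashed line the median of all shared regions, 0.165; the tRNA and repeat regions and the neighbouring promoters lie mostly at higher control levels and mostly below 0, and the regions above 0.6 all have control levels below 50.

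Other Fc receptor genes and the signalling genes behind the receptors were read at their promoters. Of 11 other Fc receptor genes, 5 had a promoter peak and 4 a region shared by all lists. Fcrl1, a receptor-like gene known from B cells, rose in log2 level by 1.12 ± 0.16 (SE; limma, adjusted p = 0.00205), with levels of 16.5, 14.5 and 12.9 in control and 31.9, 31.2 and 31.1 in MMF samples. Its rank shift was not called (adjusted p = 0.0815). Of the 5 with a promoter peak, 4 were higher without overlap (10.3% of all genes with such a peak) and 0 lower (13.4%). Besides Fcrl1 these were Fcrlb, Trim21 and Fcgrt, the neonatal Fc receptor, which were not called (adjusted p 0.0723, 0.298 and 0.0908). Of 20 signalling genes, 19 had a promoter peak, 18 a shared region, and 0 were called by rank. The Src-family kinase gene Fgr rose in log2 level by 1.04 ± 0.25 (adjusted p = 0.0161), from 13.7, 14.5 and 25.8 to 36.3, 39.7 and 31.1. Of the 19 with a promoter peak, 4 were higher without overlap (10.3% of all genes with such a peak), namely Fgr, Lyn, Pik3cd and Inpp5d. Another 2, Src and Ptpn6, were lower (13.4%). Fgr alone of the 18 signalling genes with a shared region was called on the log2 level. Of the 11556 shared regions at protein-coding promoters, 375 were called higher and 137 lower. For Inpp5d the levels were 28.8, 34.7 and 29.0 against 45.1, 65.2 and 37.0 (adjusted p = 0.0709). Syk overlapped between groups (52.1, 40.5 and 41.9 against 51.7, 52.4 and 57.7), and Btk had no promoter peak in any list.

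Short motifs were counted on both strands of the 200 bases around each region's summit. The PU.1 letters GAGGAAGT, which contain the shorter ETS core GGAAGT, stood in 1 of the 47 regions (2.13%), the first Fcgr2b intron, and in 8.27% of all 112852 regions. The core itself stood in 29.8% and 30.7%. The C/EBP pattern TTGCNNAA stood in 17% and 14.9%, the RUNX letters ACCACA in 38.3% and 25.8%, and the STAT pattern TTCNNNGAA in 12.8% and 6.16%. The AP-1 pattern TGANTCA stood in 10.6% and 16.1%, and the IRF pattern in 0 of 47 and 2.64%. The repeat copies are not independent of each other in these counts. The median GC content was 50.5% in the 47 regions and 49.5% in all.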

How the data were processed

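ATAC-seq was deposited for 6 samples of L-GMPs, 3 Control and 3 MMF, as 1 MACS2 peak list per sample. Per the labels, the authors used FastQC, Trim Galore, Bowtie2 and MACS2 with the mm10 build; the versions and the MACS2 options are not given in the sources used here. In the deposited lists, fold enrichment is a ratio, summit reads + 1 to local background + 1, and p and q are −log10 values with a lowest −log10 p of 3.01 to 3.02, so a region without a listed peak may hold reads below this limit. The score the authors deposited was not used. The summit offset gave the summit position.

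Lists were kept for chromosomes 1 to 19, X and Y. Summit reads and local background were solved from fold enrichment and p, and whole reads gave back the deposited −log10 p within 0.02% of its value for 100% of the peaks; the genome-wide background is the commonest local value. Shared regions were compared with limma 3.58.1 (R 4.3.3, no block, Benjamini-Hochberg adjusted p under 0.05), on normal scores of the fold-enrichment rank, and as an alternative on the log2 scaled level and the −log10 p rank. Counts and promoter levels (within 1 kb of a GENCODE M21 basic start, 0 where no peak was listed) were compared with exact two-sided permutation tests in scipy 1.17.1. Repeat copies were searched with blastn 2.17.0 at 90% identity or more. tRNA genes came from RefSeq. Steps were tested on simulated data. The labels give replicate numbers 1 to 3 in both groups with no shared origin, and they did not pair the samples. Members, gene lists and named regions were chosen with earlier results of these data known; the regions named are those over or nearest each start, those in all 6 lists, and those gained or called, and some listed in fewer samples were added after their values were seen. The grouping into tRNA, repeat and promoter regions, the centring and the comprehensive starts were chosen after the values were seen. Protein sequences were not used here. Some marker and neighbouring genes are not reported here.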

Additional observations from a re-analysis of the deposited data

How the results depend on the processing

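Region counts moved most with the processing. In place of 594 higher and 175 lower of all shared regions and 1 higher in the windows, the rank within the whole list gave 2402, 76 and 2, the log2 level 7645, 399 and 6, equal list lengths 917, 365 and 2, and peaks covering 50% of the region 231, 50 and 0. A −log10 q of at least 2 gave 2 in the windows. The replicate block gave 0, 0 and 0, and the deviations of same-numbered samples correlated at 0.00296 to 0.00698, so the numbers show no pairing. Leaving out 1 sample gave 0 to 9, 0 to 0 and 0 to 0. None of these settings gave a region lower in the windows.

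Centring the log2 level gave 2841 higher and 5715 lower of all, and 3 and 7 in the windows, in place of 7645, 399, 6 and 0. Leaving out 1 sample gave 4647 to 7277, 185 to 247, 3 to 5 and 0 to 1.

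Gained and lost regions (6772, 205, and 1 and 0 in the windows) became 2028 and 1180 with equal list lengths, and 2 were gained in the windows at the higher q or at 50% cover, where 375 were lost in all. Leaving out 1 sample gave 8333 to 10604 gained, 352 to 594 lost, and 1 to 3 gained in the windows.

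Window peaks per 10000 peaks of the list turned the difference of 7.33 to −0.757 (6.33 to 7.83 without 1 sample). Promoter differences without 1 sample ran from 6.15 to 13.7 for Fcgr1, 9.12 to 22.9 for Fcgr2b, 31.5 to 50.01 for Fcgr3, 41.7 to 47.5 for Fcgr4, and −10.3 to 1.28 for Fcer1g. Fcgr3 reversed to −50.3 with comprehensive starts, and Fcgr4 was 0 within 500 bp. The rank shift of the Fcgr4 region 4186 bp upstream (−0.11) turned to 0.31 with the −log10 p rank, 0.24 in the whole list, 0.78 on the log2 level, 0.15 without Control 2 and 0.09 without MMF 2 (range without 1 sample −0.34 to 0.15). That of the Fcgr1 promoter (0.09) turned to −0.14 without Control 2 or MMF 2 (range −0.14 to 0.35), and the log2 shift of the Fcer1g promoter to 0.0242 without MMF 2 (range −0.22 to 0.0242). The cause was not tested.

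Peak lists begin at 4 to 5 summit reads, and at more where the local background is high, as at the Fcgr3 start, so a region without a listed peak is not shown to be closed.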

Other observations

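The lean of tRNA regions in the windows was looked up in the rest of the genome after the window values were seen. RefSeq lists 403 tRNA genes on the chromosomes used, and 286 lay under a region. Outside the windows, 186 regions over tRNA genes had a peak in all 6 lists. Their median log2 difference in scaled level was −0.261, and 168 of the 186 (90.3%) were lower with MMF, against 35.4% of all 41182 shared regions and 65.1% of the 11556 shared regions at protein-coding promoters, whose median was −0.090. Of the 186, limma on the log2 level called 1 higher (18.6% of all shared regions) and 13 lower (0.969% of all). At the 11556 promoter regions it called 375 higher and 137 lower. On the rank, 0 of the 186 tRNA regions were called higher (1.44% of all) and 2 lower (0.425% of all). tRNA genes are alike in sequence and lie in clusters, so these regions are not independent of one another.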
